A study of Mus musculus with 18 samples.

Results

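The 10 genes described are members of the Fanconi anemia crosslink repair pathway, measured in cultured mouse testes: Fanca, Fancc, Fancd2, Fancg, Fanci, Fancl, Fancm, Brca1, Brca2 and Palb2. They were chosen by name, through the NCBI gene number that each row of the deposited table carries, and 10 of the 22657 genes of that table are members. All 10 passed the filter on low values, which kept the 15790 genes with at least 1 FPKM (sequenced fragments scaled to the length of the transcript and to the mapped fragments of the sample) in at least 3 samples. The 18 samples were testes of ICR mice in 6 groups of 3. A0, A10 and A50 came from mice that received no busulfan and were cultured for 48 h with 0, 10 or 50 μg/mL alginate oligosaccharides (AOS), short sugar chains cut from a brown algal polymer. B0, BA10 and BA50 came from mice injected once with busulfan at 40 μg per g body weight and then went into culture at these same 3 AOS levels. Busulfan was given at 3 weeks of age and the testes of treated and age-matched untreated mice were collected 2 weeks later. All groups shared the medium (DMEM/F12 with FBS) and the length of culture. Each sample was whole tissue, and the labels do not say which animals or culture repeats went into which sample, so every p-value measures the spread between these samples only.

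Busulfan is an alkylating drug that links bases within and between DNA strands. The Fanconi anemia pathway takes apart links between opposite strands during replication. A core complex, in which Fanca and Fancg are scaffold subunits, Fancc belongs to a second module, Fancl is the ubiquitin ligase and Fancm a DNA translocase that anchors the complex, attaches ubiquitin to the paired proteins Fancd2 and Fanci. The marked pair recruits nucleases, and the break that results is mended by homologous recombination, in which Brca1, Palb2 and Brca2 act together. In the testis these genes are best known for their part in maintaining germ cells, which are lost early in mice and patients without the pathway, and several of them act in meiotic recombination as well.

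The members divided into 7 genes with lower levels in busulfan-treated testes and 3 whose differences did not pass the test. Over the 3 AOS levels, the mean FPKM of Fanca, Fancg, Fancd2, Fanci, Brca1, Brca2 and Palb2 with busulfan was between 0.318 and 0.475 of that without it, and all 9 busulfan samples lay below all 9 others for each of them. For Fancc, Fancl and Fancm the ratio was between 0.842 and 0.875 and the samples overlapped. The median ratio over the 10 members was 0.44, against 1.01 over all genes tested. No AOS difference of a member passed the test, in testes with or without busulfan.

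**Figure D1:**
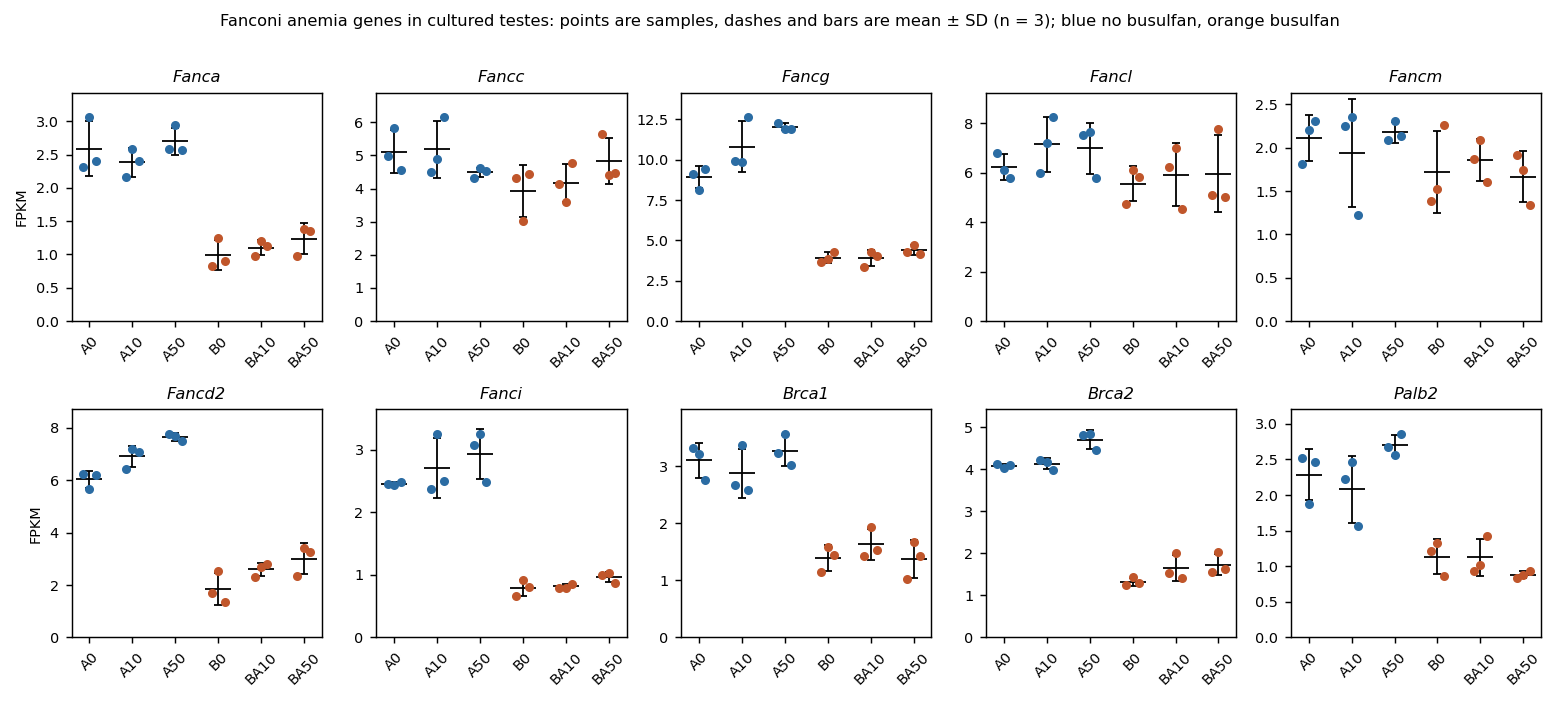
FPKM of the 10 genes in each of the 18 samples (points) by group, with the mean ± SD of the 3 samples of a group (dashes and bars); each panel has its own FPKM axis, starting at 0. For 7 genes the 9 busulfan samples (orange) lie below the 9 others (blue), while for Fancc, Fancl and Fancm they overlap.

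Gene positions below are from the GENCODE vM21 annotation of GRCm38, the assembly named in the submitters' processing notes. Sequence before the start site was available from RefSeq (GRCm38.p6) for the 9 members other than Fancd2. The 250 bases before the start of Fanca and Brca2, which fell, and of Fancc, which did not pass the test, are shown because they lie outside annotated exons and hold the letters searched. That of Fancc lies within the annotated span of the gene, between exons. The letters were the E2F sites TTTCCCGC, TTTCGCGC, TTTGCCGC and TTTGGCGC, bound by factors that drive replication genes, the CCAAT box, and TTTGAA, the cell-cycle homology region, on both strands, none of which contains another. Capitals mark E2F and CCAAT matches.
Fanca, chr8:123318577-123318826, minus strand: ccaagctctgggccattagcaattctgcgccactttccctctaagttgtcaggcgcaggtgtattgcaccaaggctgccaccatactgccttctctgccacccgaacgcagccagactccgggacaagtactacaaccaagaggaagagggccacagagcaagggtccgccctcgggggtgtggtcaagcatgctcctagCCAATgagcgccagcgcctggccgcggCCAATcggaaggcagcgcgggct
Fancc, chr13:63431746-63431995, minus strand: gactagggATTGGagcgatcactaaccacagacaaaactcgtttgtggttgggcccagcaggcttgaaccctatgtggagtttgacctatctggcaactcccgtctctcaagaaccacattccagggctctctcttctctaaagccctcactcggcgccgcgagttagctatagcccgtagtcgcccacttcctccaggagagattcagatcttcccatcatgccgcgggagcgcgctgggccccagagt
Brca2, chr5:150522371-150522620, plus strand: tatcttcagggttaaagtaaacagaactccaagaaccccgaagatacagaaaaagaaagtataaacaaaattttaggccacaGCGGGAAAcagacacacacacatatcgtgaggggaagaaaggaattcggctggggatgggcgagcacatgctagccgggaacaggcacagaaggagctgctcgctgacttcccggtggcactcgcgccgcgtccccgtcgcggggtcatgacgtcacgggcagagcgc

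Brca2 holds 1 E2F match on the strand opposite to the gene, Fanca 2 CCAAT boxes near its start and Fancc 1 CCAAT box on the opposite strand. Over the 9 members an E2F match was found in 2 (Brca2 and Fancg), against 1.91% of 27025 promoters and 3.22% of those of tested genes. A CCAAT box was found in 4 (Fanca, Fancc, Fancm and Brca1), against 34.5% and 36.7%, and TTTGAA in none, against 16.3% and 11.7%. CCAAT boxes thus stood before genes that fell (Fanca and Brca1) and before genes that did not pass the busulfan test (Fancc and Fancm). Such matches are letters in a window, and binding was not measured.

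Of the 5 core complex subunits among the members, Fancg (chr4:43002343-43010506, minus strand), a scaffold protein that binds Fanca, had the highest FPKM in testes without busulfan. Its level was 9.13, 8.13 and 9.45 FPKM in A0, 9.89, 9.88 and 12.62 in A10, and 12.29, 11.92 and 11.90 in A50. With busulfan it was 3.64, 3.82 and 4.30 in B0, 3.35, 4.27 and 4.06 in BA10, and 4.29, 4.73 and 4.16 in BA50. The highest busulfan sample therefore stayed well below the lowest of the others. Expressed as a change in log2(FPKM + 1), the busulfan difference averaged over AOS levels was −1.18 ± 0.06 (SE; limma adjusted p = 1.09e-09), and the means over 9 samples were 4.07 ± 0.411 and 10.6 ± 1.62 FPKM (SD). Fancg also passed the study's limits, an adjusted p of at most 0.001 and an absolute log2 change no smaller than 1, in each of the 3 comparisons within an AOS level.

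Fanca (chr8:123268300-123318576, minus strand), the other scaffold subunit and the one most often mutated in patients, was measured at 2.31, 3.06 and 2.40 FPKM in A0, 2.16, 2.59 and 2.41 in A10, and 2.59, 2.94 and 2.57 in A50. The busulfan samples held 0.82, 1.25 and 0.90 FPKM in B0, 0.98, 1.20 and 1.13 in BA10, and 0.98, 1.39 and 1.35 in BA50. No busulfan sample reached the lowest value without busulfan. On the log2(FPKM + 1) scale the mean difference was −0.76 ± 0.07 (SE; limma adjusted p = 4.72e-07), short of the limit of 1. A pseudocount of 1 shrinks differences at such low levels, and the ratio of the mean FPKM was 0.434.

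Fancc, Fancl and Fancm did not pass the test in any busulfan comparison. Fancc (chr13:63285043-63497278, minus strand), which belongs to the second module of the complex, was at 4.97, 5.83 and 4.55 FPKM in A0, 4.51, 4.90 and 6.15 in A10, and 4.32, 4.61 and 4.53 in A50. After busulfan its values were 4.33, 3.02 and 4.43 in B0, 4.13, 3.60 and 4.77 in BA10, and 5.65, 4.41 and 4.48 in BA50. The 3 B0 values lay below the 3 A0 values, but in the AOS cultures the groups overlapped, and in BA50 the mean was above that of A50. Fancl (chr11:26386135-26471876, plus strand), the ligase subunit, ranged from 5.79 to 8.23 FPKM without busulfan and from 4.52 to 7.75 with it, a span within which the groups overlapped. Fancm (chr12:65075603-65132058, plus strand), the translocase, ranged from 1.22 to 2.35 and from 1.34 to 2.26 FPKM. The lowest Fancm value, 1.22 FPKM, came from A10 replicate 3, the library least like the others of its group.

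The mean busulfan differences of these 3 genes were −0.16 ± 0.08 for Fancc, −0.20 ± 0.10 for Fancl and −0.16 ± 0.09 for Fancm (log2, SE), with limma adjusted p of 0.13, 0.126 and 0.187. Their 95% confidence intervals ran from −0.34 to 0.01, from −0.41 to 0.01 and from −0.36 to 0.04, so that falls of up to those sizes were not detectable apart from no change. The upper ends of the intervals of the other 7 genes were at −0.54 or below. Without A10 replicate 3 and BA50 replicate 1, the sample least like its group among those with busulfan, Fancm had a log2 change of −0.25 and a limma adjusted p of 0.0232, and without A10 replicate 3 alone −0.22 and 0.0314. In the other alternatives its adjusted p ran from 0.0933 to 0.735. Fancl, without BA50 replicate 2, had a log2 change of −0.26 and a limma adjusted p of 0.0347, and in the other alternatives its adjusted p ran from 0.074 to 0.386. Fancc stayed at 0.0686 or above in all alternatives run.

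The paired substrates of the core complex both fell. Fancd2 (chr6:113531682-113597017, plus strand), the subunit whose ubiquitin mark is read as the activation of the pathway, had 6.22, 5.67 and 6.20 FPKM in A0, 6.44, 7.21 and 7.07 in A10, and 7.77, 7.69 and 7.50 in A50. In busulfan-treated testes it had 1.68, 2.52 and 1.36 FPKM in B0, 2.31, 2.67 and 2.81 in BA10, and 2.34, 3.41 and 3.27 in BA50. The lowest value without busulfan, 5.67 FPKM, was above the highest with it, 3.41 FPKM. The log2(FPKM + 1) difference was −1.32 ± 0.14 between B0 and A0, −1.14 ± 0.14 between BA10 and A10, and −1.12 ± 0.14 between BA50 and A50 (SE), each called, and −1.19 ± 0.08 on average (limma adjusted p = 1.47e-08).

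Fanci (chr7:79391929-79450264, plus strand), the partner of Fancd2, was at 2.45, 2.43 and 2.48 FPKM in A0, 2.37, 3.25 and 2.50 in A10, and 3.07, 3.24 and 2.48 in A50. It was at 0.66, 0.92 and 0.80 in B0, 0.79, 0.79 and 0.86 in BA10, and 0.99, 1.03 and 0.87 in BA50. Its mean with busulfan, 0.857 ± 0.113 FPKM (SD, n = 9), was the lowest of the 10 members, and so was its ratio to the mean without busulfan, 0.318. The log2(FPKM + 1) difference of −0.99 ± 0.06 (SE; limma adjusted p = 1.05e-08) stopped just short of the limit of 1, and Fanci was called only in BA10 compared with A10 (−1.02). Fancd2 and Fanci, whose proteins work as a pair, thus had ratios of 0.362 and 0.318.

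Of the genes that act after the ubiquitin mark, Brca2 (chr5:150522630-150570329, plus strand), a mediator of homologous recombination, fell the most by ratio. Its FPKM was 4.12, 4.03 and 4.09 in A0, 4.23, 4.18 and 3.98 in A10, and 4.82, 4.84 and 4.45 in A50. The corresponding values after busulfan were 1.24, 1.43 and 1.29 in B0, 1.53, 2.01 and 1.42 in BA10, and 1.55, 2.02 and 1.62 in BA50. The spread within a group was small beside the gap between 2.02 and 3.98 FPKM. The mean log2 difference was −1.05 ± 0.06 (SE; limma adjusted p = 1.70e-09), and Brca2 was called without AOS and with 50 μg/mL AOS but not with 10 μg/mL (−0.96).

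Palb2 (chr7:122107262-122132985, minus strand), the protein that joins Brca1 to Brca2, had 2.52, 1.88 and 2.46 FPKM in A0, 2.22, 2.46 and 1.56 in A10, and 2.67, 2.56 and 2.86 in A50. It had 1.22, 1.33 and 0.86 FPKM in B0, 0.94, 1.02 and 1.42 in BA10, and 0.84, 0.88 and 0.93 in BA50. Here the gap was narrow, since the highest busulfan value was 1.42 and the lowest other value was 1.56 FPKM, the latter in A10 replicate 3. The mean log2 difference was −0.71 ± 0.08 (SE; limma adjusted p = 3.68e-06).

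Brca1 (chr11:101488764-101551955, minus strand), the ubiquitin ligase that starts the recombination step together with Bard1, was at 3.33, 3.22 and 2.76 FPKM in A0, 2.67, 3.37 and 2.59 in A10, and 3.24, 3.57 and 3.02 in A50. With busulfan it was at 1.14, 1.59 and 1.44 in B0, 1.43, 1.94 and 1.53 in BA10, and 1.02, 1.67 and 1.43 in BA50. All busulfan samples were again lower than the others. The mean log2 difference was −0.73 ± 0.07 (SE; limma adjusted p = 1.60e-06), with a ratio of 0.475, the mildest of the 7.

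**Figure D2:**
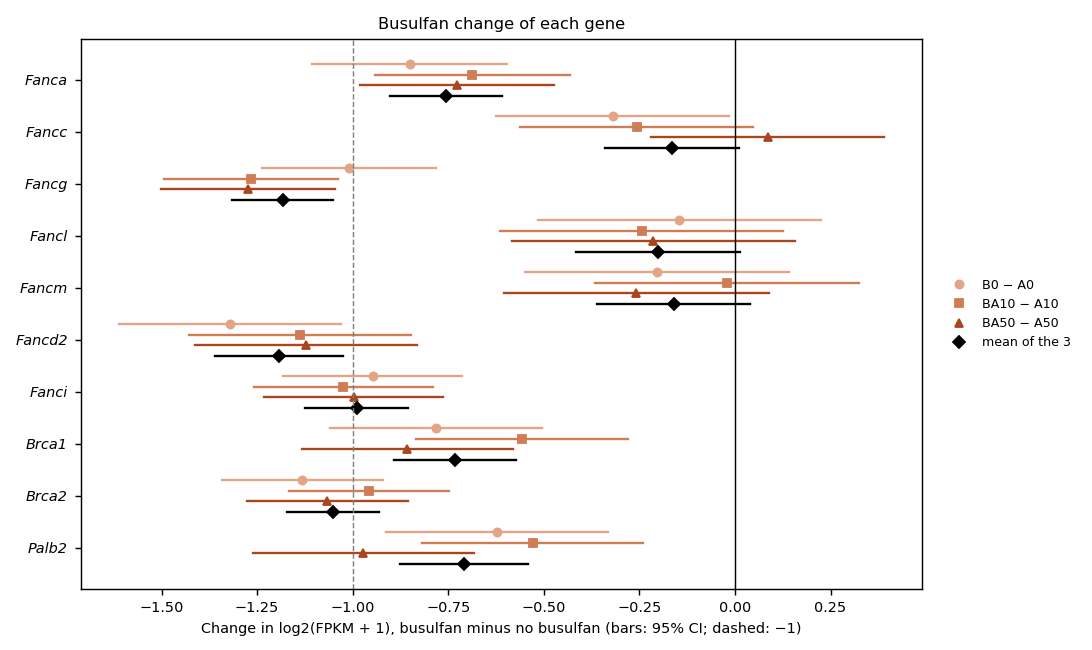
Busulfan minus no busulfan in log2(FPKM + 1) for each gene, without AOS (circles), with 10 μg/mL AOS (squares), with 50 μg/mL AOS (triangles) and as the mean of the 3 (diamonds); bars are 95% confidence intervals from limma and the dashed line marks −1. The diamonds of Fancd2, Fancg and Brca2 lie beyond −1, those of Fanci, Fanca, Brca1 and Palb2 between −0.99 and −0.71, and those of Fancc, Fancl and Fancm have intervals that include 0.

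By the study's limits, 3 of the 10 members were called lower and none higher in B0 compared with A0 (Fancd2, Fancg and Brca2), where 2.49% of all genes tested were called lower. In BA10 compared with A10 these were Fancd2, Fancg and Fanci (background 3.00%), and in BA50 compared with A50 Fancd2, Fancg and Brca2 again (background 3.36%). The mean over AOS levels gave Fancd2, Fancg and Brca2, with a background of 3.52%. At an adjusted p under 0.05 with no limit on the change, 7 of 10 were lower in each of the 4 comparisons, against 12.3% of all genes in B0 compared with A0, 15.2% in BA10 compared with A10, 16.2% in BA50 compared with A50 and 24.8% for the mean. These 3 comparisons within AOS levels share no samples, and all 7 genes are those named above in each of them.

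The groups of 3 did not overlap, with busulfan lower, for 8 members in B0 compared with A0 (22.7% of all genes), 7 in BA10 compared with A10 (20.2%) and 8 in BA50 compared with A50 (25.7%). For 7 members all 9 busulfan samples were below the 9 others, which held for 9.66% of all genes. A mean FPKM with busulfan of at most 0.5 of that without was found for the same 7 members and for 6.17% of all genes. That ratio was chosen as a limit after the values had been seen. An exact two-sided permutation test within AOS levels gave each of the 7 genes a p of 0.00025, the smallest that its 8000 divisions allow, and gave Fancc 0.083, Fancl 0.0575 and Fancm 0.0935. With 3 samples against 3 the exact permutation p cannot go below 0.1. When only the 2 groups compared entered the limma fit, no member was called in B0 compared with A0 or BA10 compared with A10. In BA50 compared with A50, 1 was called. With a pseudocount of 0.1 all 7 genes were called in the mean over AOS levels. The shares of all genes called under these alternatives are not given here.

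The fall was not of one size, and it reordered the levels. In A0 the order by mean FPKM was Fancg, Fancl, Fancd2, Fancc, Brca2, Brca1, Fanca, Fanci, Palb2 and Fancm, in which the ranges of Fancl and Fancd2, of Fancd2 and Fancc, and of each pair of neighbours from Brca1 on, overlapped. In B0 it was Fancl, Fancc, Fancg, Fancd2, Fancm, Brca1, Brca2, Palb2, Fanca and Fanci, where the ranges overlapped between Fancc and Fancg and between all neighbours from Fancd2 on. Fancl and Fancc, at 5.55 and 3.93 FPKM in B0, thus moved to the top and Fancm from rank 10 to rank 5. All members were of modest level: their means over the 18 samples ran from 1.70 FPKM for Palb2 to 7.32 for Fancg, below the median of all genes tested of 10.0 FPKM.

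Testes are mixed tissue, and in bulk samples fewer cells of a type and less RNA per cell cannot be told apart. The summed FPKM of the 10 members was 42.5 to 51.3 without busulfan and 20.9 to 29.0 with it. The summed markers of the dividing germ cells were lower with busulfan as well, though not every marker was. The sum over 15 spermatogonium markers was 321 to 404 FPKM without busulfan and 132 to 262 with it. Dmrtb1 (means of 158 and 90.3 FPKM), Dazl (67.1 and 5.38) and Uchl1 made up most of it. Of the 12 markers that passed the filter, 5 were called lower in the mean over AOS levels, against 3.52% of all genes tested. At an adjusted p under 0.05, 8 were lower, against 24.8%. Over 20 spermatocyte markers the sums were 485 to 769 and 167 to 412 FPKM, and 12 of the 19 tested were called lower. Stra8, the switch into meiosis, was at 14.2 to 35.4 FPKM without busulfan and at 0.12 or less with it, and was listed at 0 in 4 samples. By contrast, the spermatogonium marker Etv5 had means of 9.83 FPKM without and 11.9 with busulfan, and Uchl1 61.3 in both. The spermatocyte marker Rec8 had 10.3 and 11.8 FPKM.

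Replication genes behaved alike: the sum over 18 of them was 286 to 345 FPKM without and 165 to 217 with busulfan. Here 5 were called lower (3.52% of all genes tested) and 17 were lower at an adjusted p under 0.05 (24.8%). The sum over 20 spermatid markers overlapped, at 3200 to 6657 and 3213 to 13301 FPKM, with none called and 1 higher at an adjusted p under 0.05, a limit at which 13.3% of all genes were higher. The list of Sertoli cell markers, meant to report the somatic nurse cells of the tubules, summed to 1052 to 4220 and 2822 to 5111 FPKM. Of its 11 tested genes, 1 was called lower. The one called was Dmrt1, with means of 9.15 FPKM without and 0.757 with busulfan. Sox9 had means of 13.9 and 17.4 FPKM, Wt1 39.8 and 43.5, and Gdnf 3.85 and 7.22. Whether the Dmrt1 values came from Sertoli cells was not tested. Clu, with means of 2441 and 3231 FPKM, made up most of these sums, so their overlap is largely that of Clu. The part of these cell types and of replication in the members' levels was not tested. Among the spermatogonium markers Nanos2 was at 0.07 FPKM or less in every sample and listed at 0 in 7, and Sohlh1 was listed at 0 in 1, while Spata22 of the spermatocyte markers was listed at 0 in 3 samples.

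The adipocyte and simple epithelium markers stood apart in B0. The sums over 7 adipocyte markers were 196 to 805 FPKM in B0 and at most 138 in the other groups, and those over 6 simple epithelium markers 81.4 to 216 in B0 and at most 48.9 elsewhere. In B0 compared with A0, 6 adipocyte and 5 epithelium markers were higher at an adjusted p under 0.05 (limma), against 1.47% of all genes tested. In BA10 compared with A10 and BA50 compared with A50 none of them passed that limit. The same 7 Fanconi anemia genes were lower at that limit in B0 compared with A0 and in these comparisons. The part of adipocytes and epithelium in the members' levels was not tested. Lep, an adipocyte marker, was listed at 0 in 5 samples.

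**Figure D3:**
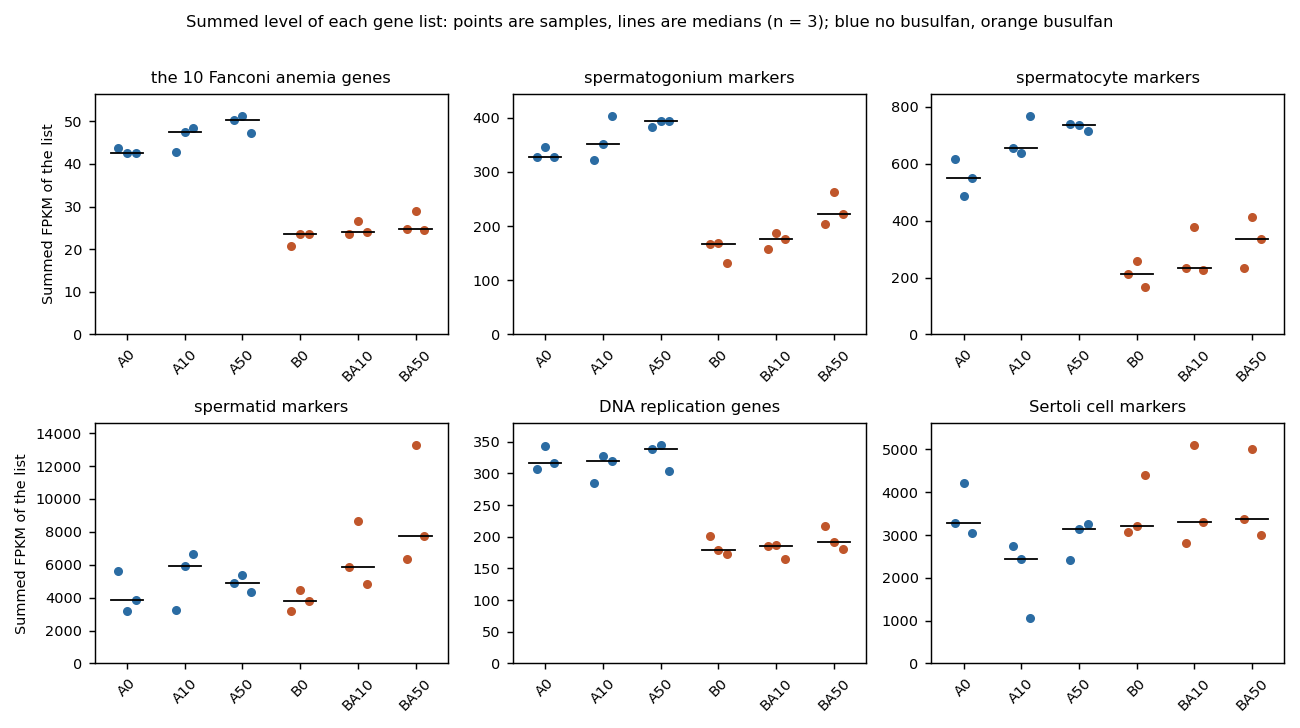
Summed FPKM of 6 gene lists in each sample (points) with the median of each group of 3 (lines), blue without and orange with busulfan; each panel has its own axis starting at 0. The sums of the 10 Fanconi anemia genes (42.5 to 51.3 against 20.9 to 29.0 FPKM), of spermatogonium and spermatocyte markers and of replication genes are apart between the treatments, whereas those of spermatid and Sertoli cell markers overlap.

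The remaining genes of the pathway were taken from 2 further lists. Of 11 other genes of the core complex and of the Fancd2 and Fanci cycle, 10 were tested. Ube2t, the ubiquitin-conjugating enzyme that works with Fancl, was called lower, and its level differed more than that of any member. It had 26.5 to 31.1 FPKM in A0, 35.5 to 37.2 in A10 and 36.5 to 41.9 in A50, but 2.69 to 3.00 in B0, 2.68 to 3.65 in BA10 and 3.58 to 4.10 in BA50, so that its mean was 10.6 times higher without busulfan. The log2(FPKM + 1) difference was −3.07 ± 0.06 (SE; limma adjusted p = 2.44e-14).

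Usp1, which removes the ubiquitin from Fancd2, had the second largest fall of that list on the log2(FPKM + 1) scale, −0.71 ± 0.12 (SE), from 90.1 ± 17.0 to 55.0 ± 12.8 FPKM (SD, n = 9). In all, 5 of these 10 genes were lower at an adjusted p under 0.05 and 1 was higher, against 24.8% and 13.3% of all genes. The one that was higher was Faap20, which ties the core complex to ubiquitin chains, with a log2 change of 0.45 ± 0.10 (SE; limma adjusted p = 0.00211) and 12.1 ± 1.62 against 8.65 ± 1.65 FPKM (SD, n = 9). Fance, the subunit that touches Fancd2, had a log2 change of 0.26 ± 0.13 (SE; limma adjusted p = 0.126). The median log2 change of the list was −0.19, against −0.74 for the 10 members and 0.01 for all genes tested. Cenps, a partner of Fancm, did not pass the filter and was listed at 0 in 17 samples.

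Of 26 genes of downstream crosslink repair, 25 were tested. Of these, 6 were called lower, against 3.52% of all genes tested. At an adjusted p under 0.05, 18 were lower and none higher, against 24.8% and 13.3%. The median log2 change was −0.61. On the log2(FPKM + 1) scale the largest falls were those of Atr, the kinase that signals stalled replication forks, and Rad51ap1, which acts in homologous recombination. Atr went from 42.8 ± 6.99 to 9.07 ± 1.07 FPKM (SD, n = 9) with a log2 change of −2.11 ± 0.08 (SE; limma adjusted p = 1.84e-11). Rad51ap1 went from 8.44 ± 1.61 to 2.19 ± 0.550 FPKM (log2 change −1.56 ± 0.08). No samples overlapped between the treatments for either gene.

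Bard1 and Slx4 were also among the genes called. Bard1, with which Brca1 forms its ligase, had 1.40 to 2.54 FPKM without busulfan and 0.20 to 0.36 with it, a mean 7.52 times higher without busulfan, against 4.72 times for Atr and 3.85 times for Rad51ap1. Slx4, the scaffold of the nucleases, had a log2 change of −1.02. At the other end, Ercc1, a nuclease subunit, and Dclre1a, another nuclease of crosslink repair, had log2 changes of 0.26 ± 0.10 and 0.09 ± 0.09 (SE) with limma adjusted p of 0.0564 and 0.467.

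**Figure D4:**
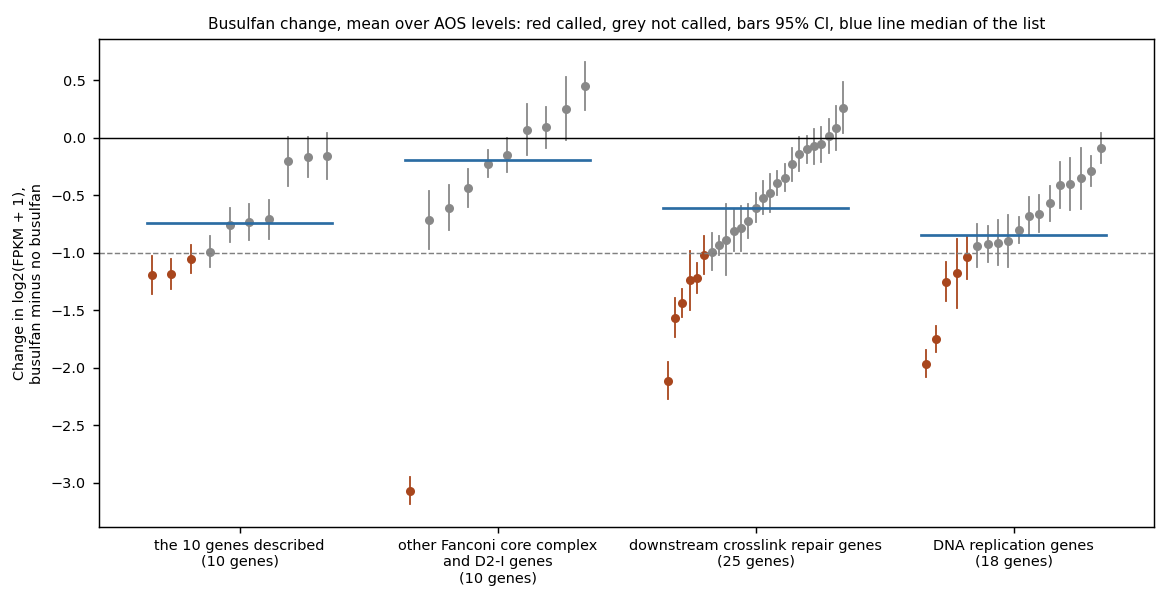
Busulfan minus no busulfan in log2(FPKM + 1), mean over AOS levels, for every tested gene of 4 lists in order of the change; points are genes, bars 95% confidence intervals, red marks genes called lower, and blue lines are the list medians (−0.74, −0.19, −0.61 and −0.85). The lowest point, at −3.07, is Ube2t, and genes on both sides of 0 stand in the lists of other core complex genes and of downstream repair genes.

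Correlations among the members over all samples held mostly the split between the treatments. Over all 18 samples the Pearson correlation of log2(FPKM + 1) between pairs of members had a median of 0.575 over 45 pairs, but 0.307 among the 9 samples without busulfan and 0.263 among the 9 with it. Against the mean standardised profile of the members, the 5 genes outside the list with the highest correlation over 18 samples were Sohlh2 (r = 0.987), a transcription factor of spermatogonia, Tonsl (0.985), a replication fork repair protein, Bub1b (0.984), a mitotic checkpoint kinase, Asf1b (0.984), a histone chaperone, and Uhrf1 (0.984), which maintains DNA methylation. Within treatments their correlations were lower, from 0.532 to 0.893 without busulfan and from 0.670 to 0.813 with it. Samples share treatment and library in these values, and no test was made of them. The members are themselves part of the mean profile. Over 18 samples Fancc (0.421), Fancm (0.514) and Fancl (0.599) followed it least and Brca2 (0.99) most. Within treatments that order changed. Without and with busulfan, Palb2 had 0.371 and −0.469, Fancl 0.528 and 0.728, and Fancc −0.223 and 0.086. Brca2 had 0.717 and 0.862, and Fanci 0.933 and 0.646.

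AOS was compared with its absence separately in the testes without and with busulfan. By limma no member was called in any of these 4 comparisons, nor passed an adjusted p under 0.05, and 0% of all genes tested were called in each of them. At an unadjusted p under 0.05 there was 1 member in A10 compared with A0 (Fancg, background 15.2%) and 2 in A50 compared with A0 (Fancg and Fancd2, background 15.6%). There was 1 in BA10 compared with B0 (Fancd2, background 5.05%) and 2 in BA50 compared with B0 (Fancd2 and Brca2, background 24.3%).

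Fancd2 and Fancg carried the largest of these differences. From A0 to A50 the log2 change of Fancg was 0.40 ± 0.11 (SE; limma adjusted p = 0.208), and from A0 to A10 it was 0.25 ± 0.11. Both A10 and A50 values of Fancg lay above all A0 values. Fancd2 had a log2 change of 0.50 ± 0.14 from B0 to BA50 (SE; limma adjusted p = 0.103), 0.35 ± 0.14 from B0 to BA10 and 0.30 ± 0.14 from A0 to A50. After busulfan its BA50 values, from 2.34 to 3.41 FPKM, overlapped those of B0, from 1.36 to 2.52. Brca2, at 0.23 ± 0.10 (SE; limma adjusted p = 0.174), was the only member whose 3 BA50 values all exceeded the 3 B0 values.

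The AOS groups were entirely above their controls for 2 members in A10 (background 7.81%), 4 in A50 (17.6%), none in BA10 (3.64%) and 1 in BA50 (11.2%). The 4 in A50 were Fancd2, Fancg, Brca2 and Palb2. None of these members' BA50 means came near the levels without busulfan, the highest mean ratio of BA50 to A50 among the 7 genes that fell being 0.459, for Fanca. Comparisons with A0 share the A0 samples and those with B0 share the B0 samples. The sums of spermatogonium and spermatocyte markers in BA50, 205 to 262 and 233 to 412 FPKM, compared with 132 to 168 and 167 to 258 in B0. The spermatogonium markers did not move together from B0 to BA50. By group mean, Dmrtb1 went from 70.6 to 109 FPKM and Uchl1 from 48.1 to 86.5. Kit went from 10.2 to 6.27 FPKM, Zbtb16 from 2.37 to 1.63 and Id4 from 3.99 to 3.31. The part of these markers in the members' values was not tested.

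**Figure D5:**
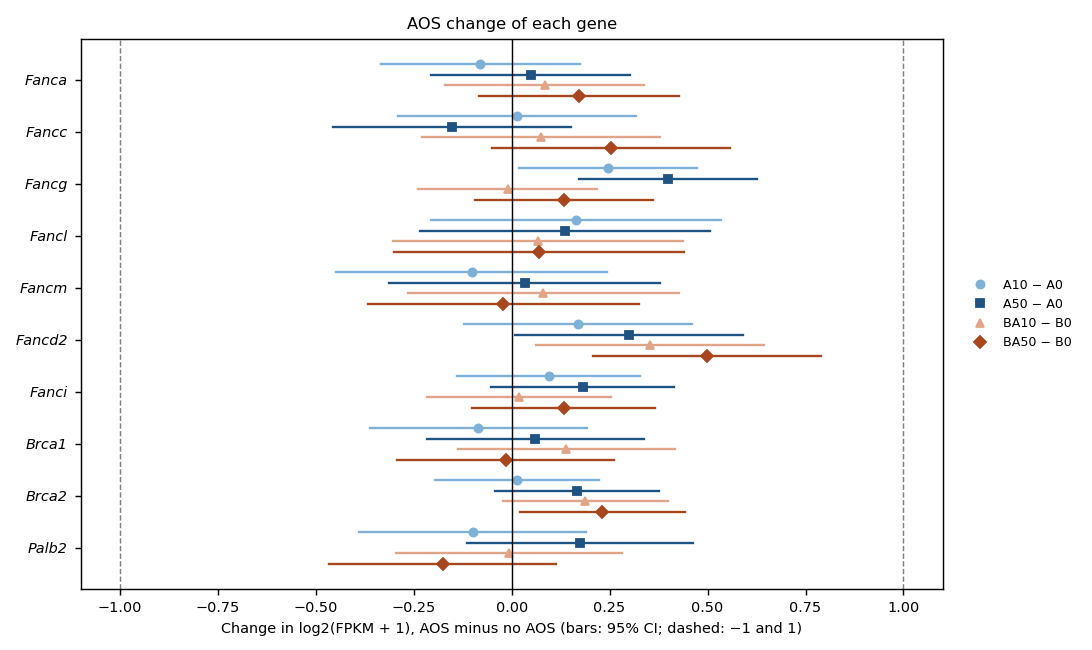
AOS minus no AOS in log2(FPKM + 1) for each gene in testes without busulfan (blue circles and squares) and with busulfan (orange triangles and diamonds), at 10 and 50 μg/mL; bars are 95% confidence intervals and dashed lines mark −1 and 1. No interval reaches either dashed line, and the points farthest from 0 are Fancd2 in BA50 (0.50) and Fancg in A50 (0.40).

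Whether the AOS change differed between testes with and without busulfan was tested as an interaction at each concentration. No member was called and 0% of all genes tested were, at either concentration. At an unadjusted p under 0.05 there were 0 members at 10 μg/mL (background 3.97%) and 0 at 50 μg/mL (background 6.28%). The largest differences at 50 μg/mL were those of Fancc, 0.41 ± 0.20, and Palb2, −0.35 ± 0.19 (log2, SE; limma adjusted p = 0.831 and 0.873), followed by Fancg at −0.27 ± 0.15. The 95% interval for Fancc ran from −0.02 to 0.84, so sizeable differences could not be told from none with 3 samples a group.

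All 10 members are annotated as protein-coding, from Fancl with 3372 exonic bases to Brca2 with 13643. Each of them except Fancg and Brca1 shares annotated exonic bases with a gene on the opposite strand. Whether the counting used strand is not stated, and without strand reads from such stretches cannot be told apart. Fanci shares 921 bases (16.0% of its exonic bases) with Polg, the mitochondrial DNA polymerase, which was at 19.0 FPKM without and 12.5 with busulfan. Fancl shares 462 bases (13.7%) with Vrk2, a kinase at 9.60 and 5.59 FPKM, and Fanca 920 bases (10.5%) with Zfp276, at 3.87 and 4.58 FPKM.

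The other overlaps were smaller or with genes that have no row under a matched number. Fancc shares 16.4% of its exonic bases with the antisense gene Gm16133, and Fancd2 3.24% with Fancd2os, whose level was 11.1 FPKM without and 13.2 with busulfan. For 3 members the start lies within 1 kb of that of an oppositely directed gene with a row in the table, at 30 bases for Fancd2 and Emc3, 56 for Palb2 and Dctn5, and 194 for Brca1 and Nbr1. Those neighbours did not fall: their log2 changes were 0.03 ± 0.06 for Emc3 (limma adjusted p = 0.765), −0.06 ± 0.06 for Dctn5 (0.43) and 0.28 ± 0.08 for Nbr1 (0.015).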

How the data were processed

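Poly(A) RNA libraries of 18 cultured testis samples were sequenced by the authors, who deposited one table with the FPKM of 22657 genes in each sample, to 2 decimals. The submitters' processing notes name HISAT, Bowtie2, RSEM and GRCm38.p5 without versions, whereas the supplementary methods describe SOAPaligner and call the unit RPKM. FPKM divides the fragments of a gene by its length and by the mapped fragments of the sample, and it fixes no common total: sums per sample ran from 463970 to 511274. Reads per sample are not known from the table, so no counting interval was computed and precision was judged from the 3 samples of a group. Pearson's r between samples of a group was 0.929 to 0.988 on log2(FPKM + 1), lowest for A10 replicate 3 and, with busulfan, BA50 replicate 1. The series design text gives AOS per kg body weight, and the labels give it per mL of medium, which is used here.

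Gene numbers were matched to RefSeq symbols of GRCm38.p6 (20656 of 20811; 1846 further rows are models of the sequencing provider). The 15790 genes that reached 1 FPKM in 3 or more samples were fitted on log2(FPKM + 1) with limma 3.58.1 (lmFit, eBayes with trend) in R 4.3.3. The fit had 1 coefficient per group and 12 residual degrees of freedom, and 10 comparisons were drawn from it. Benjamini-Hochberg adjustment was made over all genes tested within each comparison, and not across the comparisons. A gene was called at an adjusted p of at most 0.001 and an absolute log2 change no smaller than 1, the limits in the study's methods; the count method named there needs reads. Single members were also tested by exact two-sided permutation (20 divisions, or 8000 within AOS levels). Python 3.11.15 served for the exact tests, summaries and plots, with SciPy 1.17.1, NumPy 2.4.6, pandas 2.3.3 and matplotlib 3.10.9.

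The members, the gene lists and the tests were chosen with earlier results of these data known. Every member is described. Of the other genes, the text names the 2 lowest and 2 highest log2 changes of each other repair list, neighbours of the members, the 5 genes closest to the members' mean profile and markers listed at 0. Other named markers, among them Etv5, Uchl1, Rec8, Dmrt1 and Kit, fall outside these rules and serve as examples. Bard1 and Slx4 were named after their values were seen. Some downstream repair genes are not reported here by name. Alternatives were a replicate block, only the groups compared in the fit, a pseudocount of 0.1, no filter, a mean of at least 5 FPKM, equal sums, quantile normalization, no trend, an adjusted p under 0.05 alone and each sample left out. Leaving out A10 replicate 3 and BA50 replicate 1 together, and the limit of 0.5 on the ratio of mean FPKM, were chosen after seeing the data.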

Additional observations from a re-analysis of the deposited data

How the results depend on the processing

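In every alternative that could be fitted, the counts of members called in the 4 AOS comparisons and the 2 interactions were 0. At an adjusted p under 0.05 alone, 7 members were lower in each busulfan comparison. With only the groups compared in the fit, 0, 0 and 1 were called without AOS, at 10 and at 50 μg/mL, in place of 3 each, and 8 calls of single members were lost. This alternative could not be fitted apart from the main one for the mean over AOS levels, which uses all groups. With a pseudocount of 0.1 the counts were 6, 5 and 7, and 7 for the mean. Shares of all genes called under the alternatives that keep the limit on the change are not given here. Their counts thus have no background beside them. Requiring a mean of at least 5 FPKM left 2 members in the test, Fancg and Fancl, and 1 was called in each of the 4 comparisons. Quantile normalization called 1 in B0 compared with A0, and equal sums of FPKM called 5 in BA50 compared with A50. The cause of these last shifts was not tested. Leaving out 1 sample gave 2 to 3 calls in B0 compared with A0, 2 to 4 in BA10 compared with A10 and 3 to 4 in BA50 compared with A50 and in the mean. Fancg in B0 compared with A0 fell just short of the limit on the change without A0 replicate 1 or 3 or B0 replicate 1 or 2, and without BA50 replicate 1 Fancd2 fell just short in BA50 compared with A50 (−0.9956). Only Fancm and Fancc, neither of which passed, changed sign. Fancm in BA10 compared with A10 was at 0.0673 after quantile normalization and from −0.21 to 0.0854 with 1 sample left out. Fancc in BA50 compared with A50 ranged from −0.0107 to 0.138 with 1 sample left out, and was at −0.0107 without A10 replicate 3 and BA50 replicate 1. The replicate numbers do not pair the samples by the labels, and same-numbered deviations from group means correlated between −0.43 and 0.56 over 7 pairs of groups. They were over 0.1 for all 3 numbers only between B0 and BA50, where the replicate block called 0 members. With the replicate block, 3 members were called in each of the 4 busulfan comparisons, and no call of a member changed. Depth is not known, so low genes such as Fanci are limited by rounding to 0.01 FPKM and by the pseudocount.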

Other observations

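Of 12 p53 target genes, 8 were higher and none lower at an adjusted p under 0.05 (limma) in the mean over AOS levels, where 13.3% of all genes tested were higher. None was called, and their sums were 240 to 351 FPKM without and 300 to 551 with busulfan. Of 7 Leydig cell markers tested, 2 were higher at that limit and none lower, beside the same 13.3% of all genes. Of 5 peritubular myoid and 8 macrophage markers none passed it.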
